A study of Mus musculus with 14 samples.

Results

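Solute carriers are the large superfamily of membrane proteins that move amino acids, sugars, nucleosides, ions, metals and organic solutes into cells and between their compartments. They were taken here as every gene of the count table whose symbol begins with Slc followed by a digit, which gave 189 of the 12421 genes. Of these, 184 encode transporters or chains that pair with them. The other 5 carry such a symbol without being carriers: the scaffold gene Slc9a3r1, the adaptor gene Slc4a1ap, Slc7a6os, the antisense gene Slc36a3os and the pseudogene Slc2a4rg-ps. By substrate the table held 33 carriers of amino acids and peptides, 14 of sugars, 21 of the Slc35 family of nucleotide sugar carriers and their relatives, 23 of inorganic ions, 24 of metals, 38 of the mitochondrial Slc25 family and 31 of other organic solutes. These groups were set by family number with a few exceptions, so that single members of a group can carry another substrate.

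RNA was sequenced from 8 leukaemias of the mouse VTL model of T-cell acute lymphoblastic leukaemia, which the transcriptional cofactor Lmo2 induces. The Lmo2-independent tumours VTL-33, VTL-44 and VTL-81 and the evolving tumours (VTL-153, VTL-25, VTL-21) each had 1 library with doxycycline (Dox, 600 mg/kg in the food pellets of the mice) and 1 without it. VTL-24 and VTL-19, the Lmo2-dependent tumours, had 1 library each, without Dox. Every library came from leukaemia cells that carry both CD45.1 and CD45.2, sorted from the spleens of C57BL/6-Rag1-/- mice, whose own lymphocytes do not mature. All leukaemias trace to thymocytes passed through irradiated C57BL/6-Ly5.1;FVB F1 mice, and each tumour number is taken here as 1 leukaemia. The labels give neither the ages of the mice nor whether 1 or several recipients made up a library.

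Libraries held 18214415 to 24048281 counts, and all 8 T-cell markers examined were present, summing to 2910 to 5384 CPM, which are counts scaled to a common library size. A value of 0 CPM stands for no count, and 3 counts correspond to 0.120 to 0.166 CPM depending on the library. These limits cover counting error only. Lmo2 was lower with Dox than without it in all 6 tumours that had both libraries, at 0.198 to 3.24 CPM against 303 to 708 CPM in the evolving tumours. In the independent tumours it stood at 1.32, 4.09 and 8.46 CPM with Dox in VTL-33, VTL-44 and VTL-81, against 600.3, 9.28 and 27.2 CPM without it. The design text of the series speaks of activation by Dox without naming what is activated, whereas these Lmo2 values were lower with it, so libraries are called with and without Dox only as labelled. The most abundant beta chain segment of the T-cell receptor was another one in each library of VTL-25, Trbv5 at 269.5 CPM with Dox and Trbv24 at 238 CPM without it. Trbv24 led both libraries of VTL-153 and VTL-21 and also both of the independent tumour VTL-33, and Trbv13-1 came second in each evolving tumour without Dox. The evolving tumours without Dox thus shared their leading and second segments. Whether they arose independently was not tested, and n = 3 counts tumour numbers.

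Proliferating lymphoid cells take up amino acids, glucose and nucleosides through a small set of abundant carriers, and mitochondrial carriers exchange nucleotides and metabolites across the inner membrane. Levels were compared between genes as CPM per kilobase of exon. On that scale the highest was Slc25a5, the ADP/ATP exchanger of the inner mitochondrial membrane, with a mean of 361.6 and a range of 294 to 525 over the 14 libraries. The mitochondrial phosphate carrier Slc25a3 followed with a mean of 100.3, the scaffold gene Slc9a3r1 with 93.7, the plasma membrane nucleoside carrier Slc29a1 with 73.9 and the second ADP/ATP exchanger Slc25a4 with 66.4. The next 5 were the large neutral amino acid exchanger Slc7a5 at 53.9, the lactate and pyruvate carrier Slc16a1 at 47.9, the glycoprotein Slc3a2 at 47.6, the glutamine carrier Slc1a5 at 45.5 and the amino acid carrier Slc38a2 at 41.3. The ranges of these 5 genes overlapped, so that their order was not fixed across libraries. Slc25a5 stood above every other member in every library, the highest value of another member being 162, that of Slc7a5 in VTL-81 without Dox.

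None of these abundant carriers passed the test with Dox. Slc7a5 stood at 109 to 168 CPM with Dox and at 125 to 169 CPM without it in the evolving tumours, and its partner chain Slc3a2 at 98.6 to 157 CPM against 147 to 164 CPM. The highest levels of both genes were in VTL-81 without Dox, at 600.2 CPM for Slc7a5 and 329 CPM for Slc3a2, and in VTL-24, at 431 and 263 CPM. The same tumour VTL-81 with Dox had 116 CPM of Slc7a5 and 111 CPM of Slc3a2. Slc2a3, a high-affinity glucose carrier, had 26.3 to 123 CPM with Dox and 42.4 to 74.9 CPM without it in the evolving tumours, and was highest in VTL-24 at 189 CPM. Slc2a1, the widespread glucose carrier, ranged from 7.37 to 23.5 CPM over all 14 libraries. The folate carrier Slc19a1, which also takes up antifolate drugs, ranged from 16.6 CPM in VTL-44 with Dox to 72.6 CPM in VTL-81 without Dox.

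**Figure D1:**
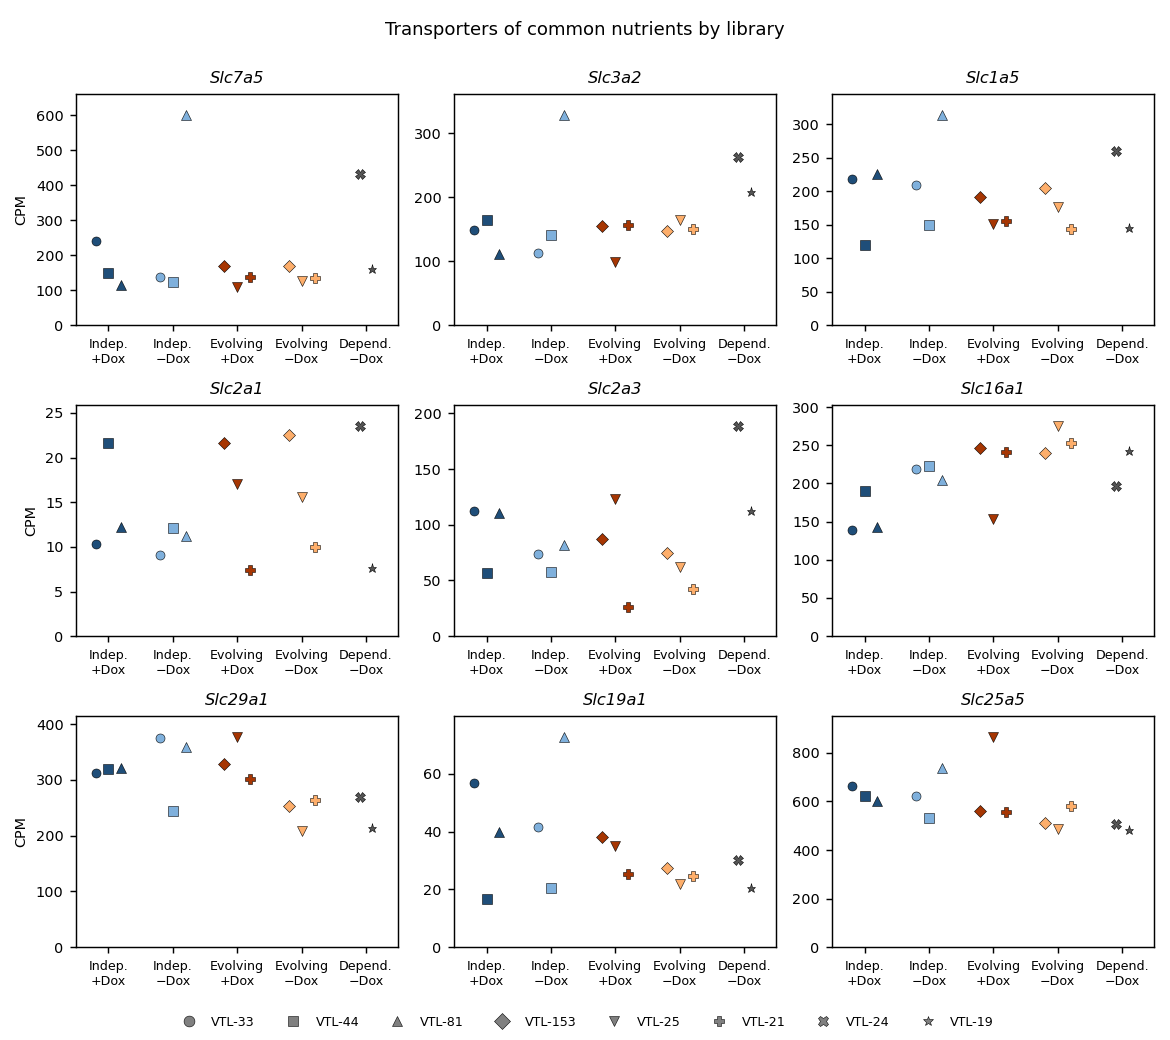
CPM of 9 carriers of common nutrients and mitochondrial metabolites in each library (linear axes from 0). Colours and positions give the group, and symbols give the tumour. Slc7a5 and Slc3a2 were highest in VTL-81 without Dox, at 600.2 CPM in the case of Slc7a5.

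The first comparison asked which carriers differed with Dox in the evolving tumours, each tumour set against itself. Slc7a8, Slc22a4, Slc27a6, Slc22a3, Slc29a3 and Slc41a3 were lower with Dox, and Slc26a11, Slc26a2 and Slc25a37 were higher. Slc29a4, at low counts, was not tested here. Of 188 members tested, 9 passed an adjusted p of 0.05 by edgeR (4.79%), 3 of them higher and 6 lower. Over all 12360 genes tested the share was 2.13%, with 1.1% higher and 1.03% lower. An unadjusted p below 0.05 was reached by 41 members (21.8%, against 16.7% of all genes). The 9 were led in size by the amino acid exchanger Slc7a8, the ergothioneine carrier Slc22a4 and the fatty acid transport protein Slc27a6, all near 0 CPM with Dox. The median log2 fold change of all 188 members was 0.02, and that of all genes was 0.00.

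Slc7a8 (ENSMUSG00000022180, chromosome 14, 54722209 to 54781946 on mm10) encodes LAT2, an exchanger of neutral amino acids that works as a pair with the Slc3a2 chain. It had 0, 0.149 and 1.62 CPM with Dox in VTL-153, in VTL-25 and in VTL-21, against 33.7, 127 and 90.9 CPM without Dox in the same tumours. The libraries with and without Dox thus did not overlap. The log2 fold change was −7.82 (SE 1.18, n = 3 tumours, adjusted p = 0.0301). In the same fit Slc3a2 had an estimate of −0.20 (adjusted p = 0.866) and the related exchanger Slc7a5 one of −0.06 (adjusted p = 0.974).

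Slc27a6 (ENSMUSG00000024600), a member of the family that takes up long-chain fatty acids and joins them to coenzyme A, had 0, 0.0496 and 0.344 CPM with Dox in VTL-153, in VTL-25 and in VTL-21. Without Dox these tumours had 2.65, 8.70 and 18.9 CPM. No library with Dox reached the lowest without it, and the log2 fold change was −6.61 (SE 0.85, adjusted p = 0.0247). With so few counts on one side, the fitted fold changes of Slc7a8, Slc27a6 and Slc22a4 and their SE depend on the prior count of the fit and are inexact.

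The Slc22 family of organic ion carriers had 2 of its members among the 9. Slc22a3 (ENSMUSG00000023828, chromosome 17, 12418960 to 12507704) encodes OCT3, which carries organic cations, monoamines among them. It had 18.1, 16.7 and 8.06 CPM with Dox in VTL-153, in VTL-25 and in VTL-21, against 127, 289.8 and 159 CPM without Dox. The groups lay far apart, with a log2 fold change of −3.75 (SE 0.39, adjusted p = 0.0136). Of the 4513 exonic bases of Slc22a3, 420 overlap with Plg on the opposite strand, and the strand setting of the counting is not given in the sources used here. Slc22a4 (ENSMUSG00000020334, chromosome 11, 53983123 to 54028090), the carrier of the dietary antioxidant ergothioneine, had 0, 0.0496 and 0.638 CPM with Dox and 6.55, 17 and 36.3 CPM without Dox, in the same order of tumours. Its log2 fold change was −7.11 (SE 1.07, adjusted p = 0.0270).

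Close to Slc22a4 on chromosome 11 lies Slc22a5 (ENSMUSG00000018900, 53864542 to 53891660, on the same strand), a close relative that carries carnitine. Slc22a5 had 33.9, 23.0 and 22.5 CPM with Dox in VTL-153, in VTL-25 and in VTL-21, against 24.3, 20.9 and 21.1 CPM without Dox. These values lay close together, and the estimate of 0.24 (SE 0.16) did not pass (adjusted p = 0.547). In VTL-24, a dependent tumour, Slc22a4 was at 0 CPM while Slc22a5 was at 22.8 CPM, and VTL-19 had 30.6 and 30.01 CPM. The 250 bases before the RefSeq start of this pair and of Slc22a3 are shown because the pair, close on the chromosome, had such different values. They are given 5′ to 3′ on the minus strand of GRCm38.p6, with E-box matches in capitals.
Slc22a4, chr11:54028105-54028354: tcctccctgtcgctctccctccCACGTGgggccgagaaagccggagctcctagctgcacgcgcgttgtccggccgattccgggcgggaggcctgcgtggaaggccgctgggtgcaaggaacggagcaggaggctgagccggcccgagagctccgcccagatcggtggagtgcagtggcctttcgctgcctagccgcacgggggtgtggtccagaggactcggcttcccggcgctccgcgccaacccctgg
Slc22a5, chr11:53891704-53891953: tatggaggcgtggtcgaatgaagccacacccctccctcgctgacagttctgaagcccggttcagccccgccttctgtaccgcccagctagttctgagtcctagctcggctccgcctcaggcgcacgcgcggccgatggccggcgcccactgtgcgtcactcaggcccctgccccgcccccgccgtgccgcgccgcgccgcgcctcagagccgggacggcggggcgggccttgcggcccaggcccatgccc
Slc22a3, chr17:12507705-12507954: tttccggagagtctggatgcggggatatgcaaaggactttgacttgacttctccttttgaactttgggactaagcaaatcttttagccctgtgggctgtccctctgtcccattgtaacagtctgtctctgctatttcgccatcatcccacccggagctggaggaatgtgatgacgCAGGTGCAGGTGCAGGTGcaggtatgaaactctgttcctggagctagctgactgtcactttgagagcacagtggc

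Lmo2 is known to bridge GATA factors and basic helix-loop-helix factors, whose DNA motifs were taken here as the string GATAA and the E-box (CANNTG). Both were searched on both strands in the windows above. The string GATAA was in none of them, though the shorter string GATA occurs before Slc22a3. The E-box had 1 match before Slc22a4, 0 before Slc22a5 and 3 in tandem before Slc22a3, and no match of one motif overlapped the other motif. Of 32851 RefSeq windows of the same length, 22.6% held GATAA and 66.2% held CANNTG, so the E-box is a common word. These windows were 71.2% G and C before Slc22a4, 73.6% before Slc22a5 and 51.2% before Slc22a3. A match is a string of letters and not a measured binding site.

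Slc29a3 (ENSMUSG00000020100, chromosome 10, 60712072 to 60752794), which carries nucleosides out of lysosomes, had 27.3, 40.3 and 39.9 CPM with Dox in VTL-153, in VTL-25 and in VTL-21, against 87.8, 90.0 and 127 CPM without Dox. On the log2(CPM + 0.5) scale the changes were −1.67, −1.15 and −1.66 in that order of tumours, smallest in VTL-25. By edgeR the log2 fold change was −1.50 (SE 0.15, adjusted p = 0.0126). Slc29a3 passed under all 13 alternative fits, with adjusted p up to 0.0461. The plasma membrane nucleoside carrier Slc29a1 had 328, 376 and 301 CPM with Dox and 254, 208 and 264 CPM without it. These values did not overlap, yet the estimate of 0.47 did not pass (SE 0.19, adjusted p = 0.277). Groups that lie apart thus describe the values and add no test of their own. Slc41a3 (ENSMUSG00000030089, chromosome 6, 90604725 to 90646412), of a family of magnesium carriers, had 4.60, 13.2 and 12.7 CPM with Dox in VTL-153, in VTL-25 and in VTL-21, against 27.9, 28.1 and 35.2 CPM without Dox. The groups did not overlap, and its log2 fold change was −1.71 (SE 0.31, adjusted p = 0.0461). With 1 tumour left out it passed in 0 of 6 fits, with estimates of −2.02 to −1.29 and adjusted p of 0.0701 to 0.0969.

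Both members of the Slc26 family of anion exchangers that rose are sulfate carriers. Slc26a11 (ENSMUSG00000039908, chromosome 11, 119355557 to 119381079) had 4.25, 9.12 and 3.05 CPM with Dox in VTL-153, in VTL-25 and in VTL-21, against 0.850, 0.641 and 0.225 CPM without Dox. Low as its levels were, the groups did not overlap, and the log2 fold change was 3.27 (SE 0.50, adjusted p = 0.0290). Slc26a2 (ENSMUSG00000034320), which supplies sulfate for proteoglycans, had 103, 103 and 139 CPM with Dox in the same order of tumours, against 66.2, 51.0 and 49.8 CPM without Dox. Again with no overlap, its log2 fold change was 1.05 (SE 0.18, adjusted p = 0.0427). It passed in 0 of the 6 fits that left out 1 tumour, with estimates of 0.81 to 1.23 and adjusted p of 0.0582 to 0.144.

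Slc25a37 (ENSMUSG00000034248, chromosome 14, 69241848 to 69285112) encodes mitoferrin 1, which brings iron into mitochondria for haem and iron-sulfur clusters and is best known from red cell precursors. It had 155, 161 and 189 CPM with Dox in VTL-153, in VTL-25 and in VTL-21, against 82.4, 83.5 and 103 CPM without Dox. Of its 6021 exonic bases, 381 overlap with Gm31748 and 92 with Gm27223 on the opposite strand. The rise was of much the same size in the 3 tumours, at 0.90, 0.94 and 0.87 on the log2(CPM + 0.5) scale. By edgeR it was 0.91 (SE 0.13, adjusted p = 0.0212). Erythroid markers were higher with Dox in VTL-21 and not in VTL-153 or VTL-25: in VTL-153 they summed to 0.455 CPM with Dox against 3 CPM without it, and in VTL-25 to 7.88 CPM against 9.30 CPM, while VTL-21 had 145 CPM against 5.84 CPM. The second mitoferrin, Slc25a28, had 30.8, 16.0 and 33.8 CPM with Dox and 28.2, 26 and 23.8 CPM without Dox, with an estimate of −0.02 (adjusted p = 0.983).

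**Figure D2:**
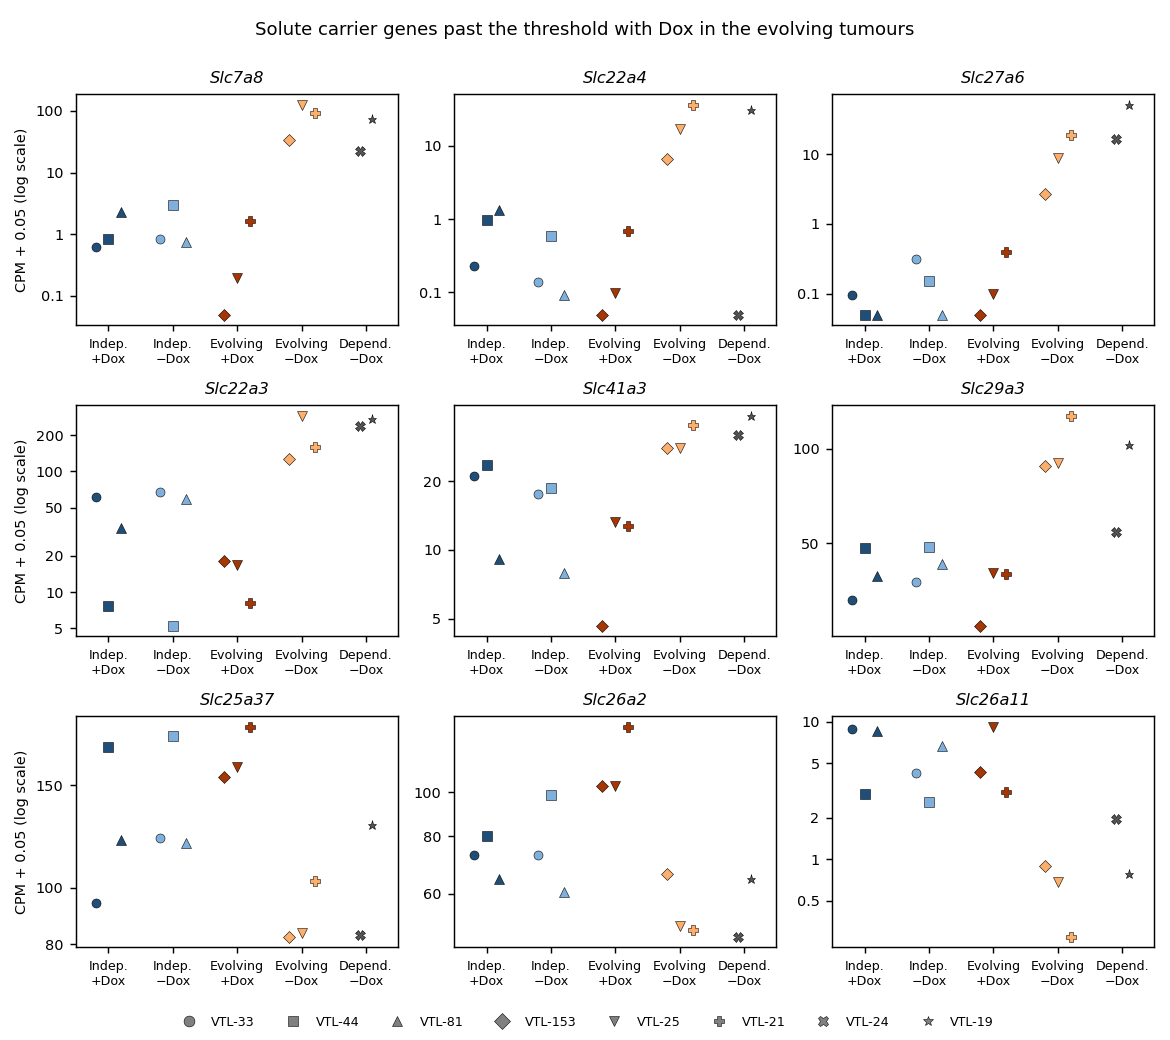
CPM + 0.05 (log axes) in each library of the 9 members that passed the test with Dox in the evolving tumours. Colours and positions give the group, and symbols give the tumour. In each panel the 3 evolving libraries with Dox lie wholly on one side of the 3 without Dox, as for Slc29a3 at 27.3 to 40.3 CPM against 87.8 to 127 CPM.

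Next by p among the members that were higher with Dox and had a mean log2 level of 2 or more came members that did not pass. Slc15a2, a proton-coupled carrier of small peptides, was 1 of them. It had 124, 188 and 1.77 CPM with Dox in VTL-153, in VTL-25 and in VTL-21, against 35, 38.7 and 0.0449 CPM without Dox. Its estimate of 2.40 (SE 0.44) missed the threshold with an adjusted p of 0.0506. Slc9a9, an endosomal sodium/proton exchanger, had 79.2, 125.5 and 49.4 CPM with Dox and 24.7, 18.7 and 22.8 CPM without Dox, with an estimate of 1.85 (SE 0.36, adjusted p = 0.0611). Slc35g1, Slc25a17 (a peroxisomal carrier) and Slc28a2 (which takes up purine nucleosides) had estimates of 0.88, 0.50 and 0.87, higher with Dox in each of the 3 tumours, and did not pass either. Over all members, 72 of 188 moved the same way in the 3 evolving tumours (38.3%), against 34.9% of all genes.

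By substrate, the 9 genes were spread over 5 groups. Of the carriers of other organic solutes, 4 of 30 tested were lower and none was higher, with a median log2 fold change of −0.11. Among carriers of inorganic ions 2 of 23 were higher and none lower, with a median of 0.27, against −0.002 for all genes. Metal carriers had 1 of 24 lower, amino acid and peptide carriers 1 of 33 lower, and mitochondrial carriers 1 of 38 higher. No carrier of sugars, of 14, or of the Slc35 group, of 21, passed by edgeR, and 3 in each of these groups had an unadjusted p below 0.05, as had 16.7% of all genes. Over all genes 1.1% passed as higher and 1.03% as lower. The counts by group are small, and no group was tested against these shares. Carriers of the superfamily under other symbols, such as Mtch1, had 0 of 25 past the threshold in either direction, and of 15 glycolysis genes only the hexokinase gene Hk1 passed (−1.21, SE 0.14, adjusted p = 0.0149), at 137, 128 and 170.1 CPM with Dox in VTL-153, in VTL-25 and in VTL-21, against 258, 339 and 418 CPM without Dox.

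**Figure D3:**
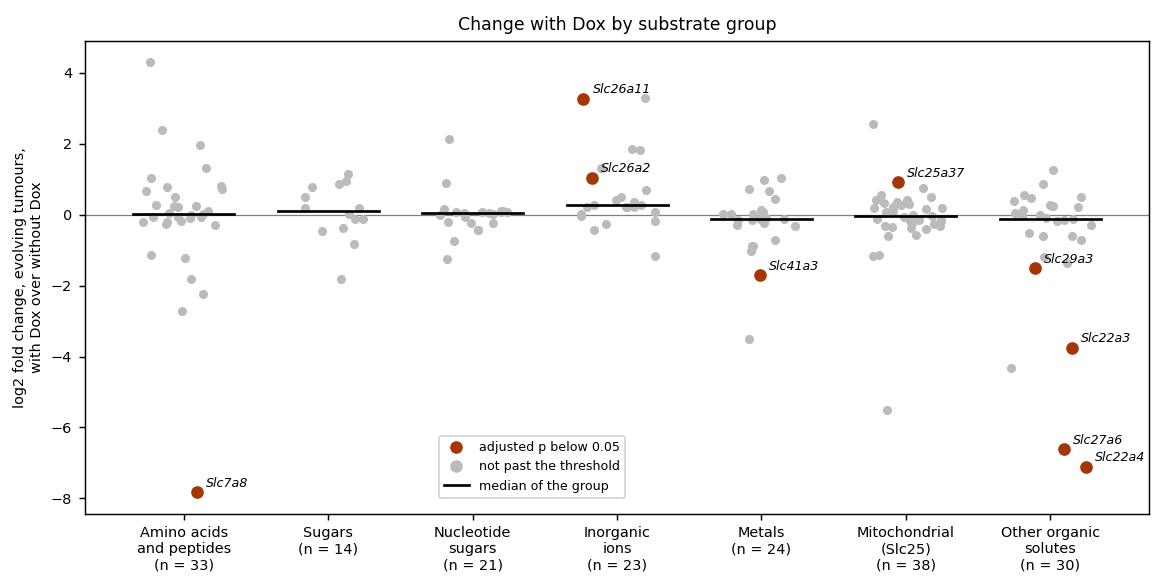
Log2 fold change with Dox over without Dox in the evolving tumours for the carriers tested, by substrate group. Each point is a gene, points in the darker colour passed an adjusted p of 0.05, and bars are medians. The 9 that passed lie in 5 of the 7 groups, 4 of them among carriers of other organic solutes.

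The count of 9 rested on several tumours. Without VTL-25, whose libraries differed in their leading beta chain segment, only Slc29a3 passed, and the part of that difference in the calls was not tested. Without VTL-33, an independent tumour that shares the estimate of spread, Slc22a3 and Slc29a3 passed. Without VTL-153 the count was 4 (Slc22a3, Slc26a11, Slc29a3 and the zinc carrier Slc39a6), without VTL-44 it was 5 (Slc22a3, Slc22a4, Slc25a37, Slc27a6 and Slc29a3), and without VTL-81 it was 6, these and Slc7a8. Without VTL-21 it was 10, of which 5 (Slc22a3, Slc22a4, Slc27a6, Slc29a3 and Slc7a8) were among the 9. With no replicate block the count was 1, again Slc29a3, whereas DESeq2 called 31 members (16 higher and 15 lower) with all 9 among them.

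The same comparison in the independent tumours asked whether carriers differed with Dox there. No member passed by edgeR, 0 of 188, and none had an unadjusted p below 0.05, against 0 and 0.704% of 12360 genes. DESeq2 and limma voom also called 0. Slc7a8 had 0.573, 0.779 and 2.27 CPM with Dox in VTL-33, VTL-44 and VTL-81, against 0.782, 2.93 and 0.690 CPM without Dox. Slc22a3 had 61.6, 7.60 and 33.7 CPM with Dox against 67.2, 5.21 and 59.5 CPM without it, and Slc29a3 had 33, 48.2 and 39.3 CPM against 37.5, 48.6 and 42.9 CPM. For all 3 genes the libraries with and without Dox overlapped. The smallest p was that of Slc16a1, at 139, 190.2 and 142 CPM with Dox against 219, 223 and 204 CPM without it (estimate −0.47, SE 0.20, adjusted p = 1). Among members that moved the same way in all 3 tumours Slc35b3 followed, with an estimate of 0.38. Between them by p lay Slc27a6 (−2.64, SE 1.12), which had few counts, and Slc25a40 (0.64, SE 0.30). These did not move the same way in all 3 tumours.

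Whether the Dox response differed between the classes was tested as the response of the independent tumours minus that of the evolving tumours. By edgeR 0 of 188 members passed, against 0.121% of all genes, and 22 had an unadjusted p below 0.05 (11.7%, against 9.53%). The smallest adjusted p were 0.0845 for Slc22a3 (3.59, SE 0.51) and for Slc29a3 (1.40, SE 0.21), and 0.0877 for Slc22a4 (9.04, SE 1.43). Slc25a37 had an estimate of −1.05 (SE 0.18, adjusted p = 0.102). DESeq2 called 12 members, 8 higher and 4 lower, limma voom 1 (Slc22a3, adjusted p = 0.0440), and edgeR without VTL-21 1 (Slc7a8, 9.86, adjusted p = 0.0495). A response past the threshold in the evolving tumours and not in the independent ones was therefore not shown by edgeR to differ between them.

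Between the classes, the libraries without Dox were compared first. Against the mean of the dependent and evolving tumours, Slc7a8 and Slc27a6 were lower in the independent tumours, and these were the 2 members of 188 that passed (1.06%, against 1.6% of 12348 genes in either direction and 0.948% lower). Slc7a8 had 0.782, 2.93 and 0.690 CPM in the independent tumours VTL-33, VTL-44 and VTL-81, against 33.7, 127 and 90.9 CPM in VTL-153, in VTL-25 and in VTL-21, which are evolving, and 22.1 and 72.6 CPM in VTL-24 and VTL-19, which are dependent. Slc27a6 had 0.261, 0.0993 and 0 CPM in the independent tumours, against 2.65 to 18.9 CPM in the evolving and 16.4 and 52.0 CPM in the dependent tumours. For neither gene did the independent libraries overlap with the others. The log2 differences were −5.43 (SE 0.86, adjusted p = 0.0391) and −7.20 (SE 1.21, adjusted p = 0.0406). In 7 of the 8 fits that left out 1 tumour 0 members were called, and limma voom also called 0. Without VTL-44 the count was 3, with Slc7a8 (adjusted p = 0.0418) and without Slc27a6 among them. DESeq2 called 28, and 45 members had an unadjusted p below 0.05 by edgeR (23.9%, against 18.6% of all genes). Of 25 carriers of the superfamily under other symbols, 1 passed by edgeR in this comparison. It was Mtch1, higher in the independent tumours, at 202 to 213 CPM against 116 to 162 CPM in the rest (0.66, SE 0.10, adjusted p = 0.0387).

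Between the independent tumours and the rest, the groups of 27 of 188 members did not overlap (14.4%), near the 13.8% of all genes. Some members with such groups did not pass the test, and the following are examples. Slc35d1, which carries UDP-sugars into the endoplasmic reticulum, had 33.5, 24.9 and 20.7 CPM in the independent tumours VTL-33, VTL-44 and VTL-81, against 33.7, 34.3 and 49.4 CPM in the evolving and 97.0 and 73.6 CPM in the dependent tumours. The gap of Slc35d1 was narrow, with 33.5 CPM in VTL-33 against 33.7 CPM in VTL-153. Its estimate against the rest was −1.13 (SE 0.23, adjusted p = 0.0632). Against the evolving tumours alone it was −0.57 (SE 0.24, adjusted p = 0.305), and against the dependent tumours −1.69 (SE 0.27, adjusted p = 0.0647). The myo-inositol carrier Slc5a3 had 6.86, 7.45 and 6.73 CPM in the independent tumours against 22.8, 23.6 and 14.3 CPM in the evolving and 23.0 and 11.9 CPM in the dependent tumours (−1.42, SE 0.30, adjusted p = 0.0710). Slc9a9 lay the other way, at 44.6, 42.2 and 82.5 CPM in the independent tumours, 18.7 to 24.7 CPM in the evolving and 33.2 and 33.8 CPM in the dependent tumours (1.06, SE 0.24, adjusted p = 0.0849).

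Single class pairs gave no call by edgeR. Independent against dependent tumours had 0 of 188 members past the threshold, with 32 at an unadjusted p below 0.05 (17%, against 13.2% of all genes), and 0.0972% of all genes past the threshold. DESeq2 called 18, 4 higher and 14 lower. Independent against evolving tumours without Dox had 0, with 42 at an unadjusted p below 0.05 (22.3%, against 16.4%) and 0.259% of all genes past the threshold. DESeq2 called 22 in that pair, and edgeR without VTL-44 called 1, Slc7a8. Evolving against dependent tumours had 0 of 188, 7 at an unadjusted p below 0.05 (3.72%, against 3.39%) and 4 by DESeq2, where 0 of all 12348 genes passed by edgeR. The smallest p of that pair was that of Slc12a2, a sodium-potassium-chloride cotransporter, at 0.700, 1.60 and 0.494 CPM in VTL-153, in VTL-25 and in VTL-21 and 20.2 and 7.62 CPM in VTL-24 and VTL-19 (−3.88, SE 0.74, adjusted p = 0.814). With Dox, independent and evolving tumours had 0 of 184 members past the threshold, 9 at an unadjusted p below 0.05 (4.89%, against 4.74%) and 2 by DESeq2, against 0 of 12093 genes. limma voom called 0 in each of these pairs.

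The levels of several members put the evolving tumours with Dox on the side of the independent tumours. Between the 9 libraries of the independent tumours and of the evolving tumours with Dox and the 5 libraries of the evolving tumours without Dox and the dependent tumours, 12 of 189 members did not overlap (6.35%, against 4.1% of all genes). The 9 that were lower (4.76%, against 2.46% of all genes) were Slc7a8, Slc22a3, Slc27a6, Slc29a3, Slc41a3, the mitochondrial citrate carrier Slc25a1, the zinc carrier Slc39a11, the GDP-fucose carrier Slc35c1 and Slc23a1 of the ascorbate carriers. The 3 that were higher (1.59%, against 1.64%) were Slc26a11, Slc9a9 and Slc12a8. This grouping includes the pairs of the Dox comparison above, so it is a description and not a further test. Slc29a3 had 27.3 to 48.6 CPM in the 9 libraries and 54.2 to 127 CPM in the 5, and Slc39a11 had 16.1 to 25.8 CPM against 36 to 69.2 CPM. Slc25a1 had 13.1 to 33.7 CPM against 35.1 to 39.4 CPM, a narrow gap. The gap of Slc35c1 was narrower still, at 56.3 to 76.46 CPM against 76.85 to 103 CPM. Slc23a1 was near the counting limit, at 0 to 0.197 CPM against 1.00 to 3.63 CPM, and no fold is given for it.

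Summed over their members, the carriers of the Slc35 group stood at 709 to 728 CPM in the independent tumours with Dox, 698 to 729 CPM in the independent tumours without Dox, 732 to 917 CPM in the evolving tumours with Dox, 860.4 to 873 CPM in untreated evolving tumours, and 819.7 and 924 CPM in the dependent tumours. The 6 independent libraries lay below the 8 others by a narrow margin, which was lost with plain library sizes, where VTL-25 with Dox had 724.7 against up to 724.8 in the independent libraries. The summed mitochondrial carriers were at 2592 to 2752 CPM in the independent tumours with Dox, 2418 to 2857 CPM in those without, 2513 to 2808 CPM in the evolving tumours with Dox, 2186 to 2461 CPM in untreated evolving tumours, and 2391 and 2439 CPM in the dependent tumours. Such sums are led by their most abundant members and were not tested.

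Members also varied between libraries, in a spread that includes the differences of class and Dox. Over the 14 libraries the median SD of log2(CPM + 0.5) was 0.398 for the 157 members with a mean of at least 2 on that scale, against 0.313 for 10082 genes. It was 0.659 for amino acid and peptide carriers and 0.573 for sugar carriers, against 0.308 for the Slc35 group and 0.322 for mitochondrial carriers. The most variable was Slc15a2 (SD 3.19), followed by Slc7a8 (2.86), the cystine/glutamate exchanger Slc7a11 (2.63), the proton-coupled amino acid carrier Slc36a4 (2.56) and Slc22a3 (1.97).

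Slc7a11, which supplies cystine for glutathione synthesis, had 3.44, 398 and 0.829 CPM with Dox in the independent tumours VTL-33, VTL-44 and VTL-81, against 7.95, 206 and 11.3 CPM without Dox. Its levels in the evolving tumours were 115, 0.446 and 23.7 CPM with Dox in VTL-153, in VTL-25 and in VTL-21, against 17.5, 4.41 and 4.31 CPM without Dox, and the dependent tumours had 3.51 and 2.79 CPM. High levels were thus found in both libraries of VTL-44 and in VTL-153 with Dox. Slc36a4 was at 25.9 to 47.3 CPM in all 4 libraries of VTL-33 and VTL-81 and at 0.633 and 1.54 CPM in VTL-44 with and without Dox. VTL-25 had 0 CPM of it with Dox and 16.1 CPM without, VTL-21 had 1.08 and 0.0449 CPM, and VTL-153 had 18.8 and 31.4 CPM. The highest level of Slc36a4 over the 14 libraries, 8.26 CPM per kilobase of exon, was in a dependent tumour. Slc35f2 was at 106, 31.2 and 0.246 CPM with Dox in VTL-153, in VTL-25 and in VTL-21, against 21.1, 10.4 and 0 CPM without Dox.

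**Figure D4:**
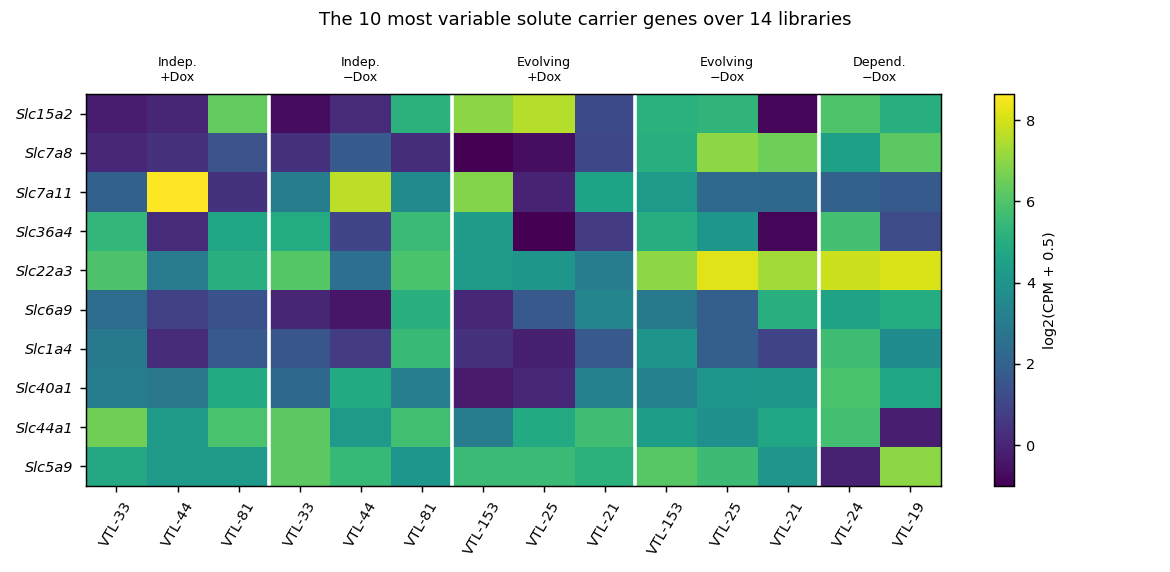
Levels of the 10 members with the largest SD, among those with a mean of at least 2, as log2(CPM + 0.5), in each library. Columns are libraries by group and tumour, and rows run from the most variable down. Slc7a11 is brightest in both libraries of VTL-44, at 398 CPM with Dox and 206 CPM without Dox, whereas Slc7a8 and Slc22a3 follow the groups.

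The genes whose log2 levels were most like those of the leading members over the 14 libraries were listed by Pearson correlation, as a description, since libraries of the same tumour are not independent. For Slc7a8 they were Npc1 (r = 0.980), Cep85l (0.978) and P2ry1 (0.975). For Slc7a11 they were Brpf1 (0.942), Ino80c (0.939) and Ubr3 (0.934), and for Slc15a2 Zbtb18 (0.849), Txndc16 (0.838) and Spidr (0.827).

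Some members followed markers of other blood cells that a sorted sample can still hold. Slc4a1, band 3 of the red cell membrane, had 0.661, 40.6 and 8.35 CPM with Dox in VTL-33, VTL-44 and VTL-81, against 0.0434, 7.70 and 0.647 CPM without Dox. Its levels in the evolving tumours were 0, 1.39 and 39.8 CPM with Dox in VTL-153, in VTL-25 and in VTL-21, against 1.05, 1.04 and 1.17 CPM without Dox. Of 12 erythroid markers 8 were in the table, and they summed to 4.81 to 92.6 CPM in the independent tumours with Dox, 1.61 to 24.1 CPM in those without, 0.455 to 145 CPM in the evolving tumours with Dox, 3 to 9.30 CPM in untreated evolving tumours, and 0.0935 and 9.20 CPM in the dependent tumours. The 2 libraries highest in Slc4a1 were the 2 highest in these markers, VTL-21 with Dox at 145 CPM and VTL-44 with Dox at 92.6 CPM. In VTL-24, 6 of the 8 markers were at 0, and so was Slc4a1.

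Slc11a1, the metal carrier of phagosomes, was highest in VTL-44 without Dox, at 20.6 CPM, and in VTL-81 with Dox, at 14.8 CPM. These 2 libraries also had the highest sums of the 14 myeloid markers, at 1741 and 2155 CPM. Over the groups the myeloid sums were 288 to 2155 CPM in the independent tumours with Dox, 131 to 1741 CPM in those without, 59.4 to 315 CPM in the evolving tumours with Dox, 63.7 to 277 CPM in untreated evolving tumours, and 98.5 and 177 CPM in the dependent tumours, with no marker at 0 in any library. Slc40a1, the iron exporter ferroportin, had 0.304, 0.545 and 8.94 CPM with Dox in VTL-153, in VTL-25 and in VTL-21, against 8.80, 16.1 and 16.9 CPM without Dox, and its estimate of −3.51 did not pass (SE 1.19, adjusted p = 0.205). It was nevertheless highest in VTL-24, at 59.4 CPM, where the myeloid sum was 98.5 CPM. Of 10 B-cell markers 4 were in the table, and their sum reached 7913 CPM in VTL-21 with Dox, against 31.4 to 779.9 CPM in the 13 other libraries. Most of that sum was the immunoglobulin genes Ighm (6275 CPM, against 222.5 CPM without Dox) and Igkc (1627 against 353.4 CPM). Blnk stood at 7.17 against 1.44 CPM, and Cd79b was lower with Dox, at 4.47 against 15.1 CPM. The part of such cells in the results was not tested, and fewer cells of a type and less RNA per cell cannot be told apart in these bulk samples.

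**Figure D5:**
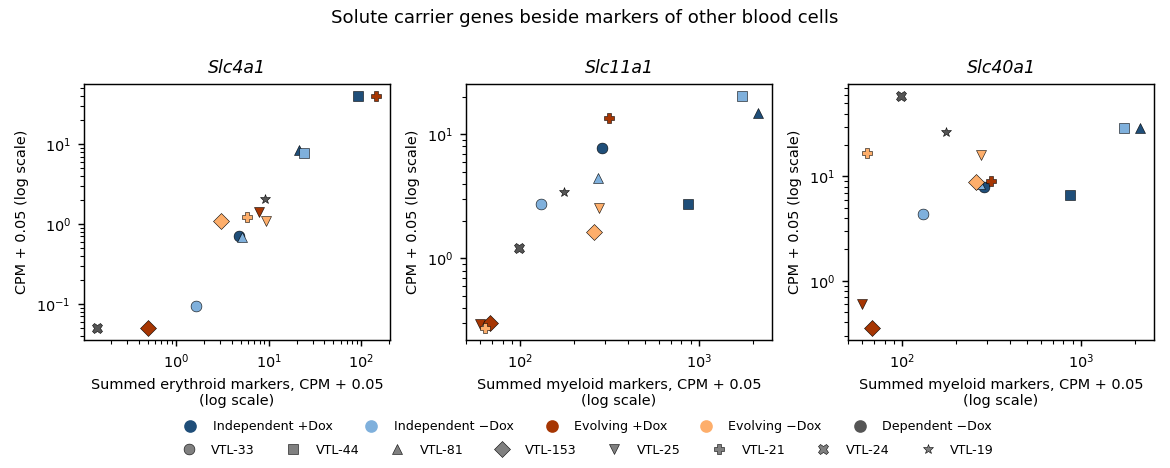
CPM of Slc4a1 against the summed erythroid markers, and of Slc11a1 and Slc40a1 against the summed myeloid markers, each as CPM + 0.05 on log axes. Each point is a library, coloured by group and shaped by tumour. Slc4a1 is highest, at 39.8 and 40.6 CPM, in the 2 libraries with the largest erythroid sums, whereas Slc40a1 is highest, at 59.4 CPM, in a library with a myeloid sum of 98.5 CPM.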

How the data were processed

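STAR 2.5.2b, featureCounts and the mm10 genome are named in the submitters' processing notes. The authors' deposited values were raw, unnormalised counts per gene. Annotation and strand setting are not given in the sources used here. Of the other columns, 42 hold per-sample values on other scales and were not used.

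Library sizes were scaled by TMM factors for CPM (0.960 to 1.041). Positions and exon lengths came from GENCODE for mm10, in which all 189 members were found. Promoter windows came from RefSeq (GRCm38.p6), with an entry for 142 members, and the 250 bases before the start were searched. Per the labels' protocols, RNA had an integrity number above 8.

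The fit was edgeR 4.0.16 in R 4.3.3 (default filter on low counts with minimum count 10, robust quasi-likelihood, Benjamini-Hochberg over all genes of a comparison, threshold 0.05). Adjusted p values are edgeR's unless another tool is named, and SE is the size of a change over the square root of F. The 12 libraries of the 6 tumours with and without Dox were fitted with a block for each tumour and separate Dox terms for the classes. Classes were compared in the 8 libraries without Dox and the 6 with Dox. The tumour number in the titles was taken to pair the libraries as 1 leukaemia, though those of VTL-25 differ in their leading beta chain segment. Partners' deviations from their group means correlated at 0.698, 0.633 and 0.505 in VTL-33, VTL-44 and VTL-81 and at 0.166, 0.0202 and 0.181 in VTL-153, in VTL-25 and in VTL-21. Among pairs of libraries of the same Dox state none repeated another. The closest, VTL-153 and VTL-25 without Dox, differed by a chi-square of 52.2 per degree of freedom. Libraries with Dox were not compared in this way with those without it.

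As alternatives served DESeq2 1.42.0, limma voom 3.58.1, RLE size factors, no filter, a minimum count of 50, a fit that is not robust, no replicate block, plain library sizes and each tumour left out. Members past the threshold were named. Where fewer than 5 passed in a direction, those with the smallest p could be named as not passing, if their mean log2 level was 2 or more and their direction was shared by every tumour (Dox) or their groups were apart (classes). Relatives, partners, the variable genes of single tumours and some further members that did not pass were named after their values were seen. The members, substrate groups and lists were chosen with earlier results of these data known, and Slc4a1ap was set among the genes that are not carriers after the table was read.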

Additional observations from a re-analysis of the deposited data

How the results depend on the processing

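For Dox in the evolving tumours, the 9 members past the threshold by edgeR became 31 by DESeq2, 14 by limma voom, 1 where no replicate block was used and 1 to 10 when 1 tumour was left out. For the difference of the Dox responses, 0 became 12 by DESeq2, 1 by limma voom and 0 to 1 with a tumour left out. DESeq2 called 18 members between independent and dependent tumours, 4 between evolving and dependent tumours, 22 between independent and evolving tumours without Dox and 2 with Dox, each against 0 by edgeR, and leaving out a tumour gave 0 to 1 between independent and evolving tumours without Dox. For independent tumours against the rest, 2 became 28 by DESeq2, 0 by limma voom and 0 to 3 with a tumour left out. The cause of these shifts was not tested. No estimate of a member chosen by the naming rule changed sign under the alternatives run for it, and relatives named beside such members were not followed through them. Other scaling, filters and the fit that is not robust gave 9 or 10 members with Dox in the evolving tumours and 2 for independent tumours against the rest. A dependent tumour left alone by such a step is assumed to vary like the others. Slc22a4, Slc27a6, Slc23a1 and Slc26a11 are limited by depth, with few counts in 1 group. With 2 or 3 tumours a group, p values measure the spread between these tumours only.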

Other observations

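The dependent tumours differed from each other in several members. Slc5a9, of the sodium/glucose carrier family, was at 0.421 CPM in VTL-24 and 129 CPM in VTL-19, and the choline carrier Slc44a1 at 53.5 CPM in VTL-24 and 0.368 CPM in VTL-19. The cationic amino acid carrier Slc7a3 was at 39.1 CPM in VTL-24 and 6.99 CPM in VTL-19, against 0.0487 to 6.60 CPM in the libraries of the other classes. Slc6a13, a carrier of GABA, was at 57.4 and 30.1 CPM in VTL-44 with and without Dox and at 12.6 CPM in VTL-153 with Dox, and at most at 2.52 CPM elsewhere. The neutral amino acid carrier Slc1a4 was at 2.71 CPM with Dox and 44.6 CPM without Dox in VTL-81, and the glycine carrier Slc6a9 at 2.21 and 34 CPM in the same libraries. These genes were picked after their values were seen.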
